A study of Arabidopsis thaliana with 8 samples.

Results

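Suberin is the waxy polyester that root endodermal cells lay down between plasma membrane and wall, where it limits the movement of water and solutes. Its aliphatic monomers are built from long fatty acyl chains by elongation, omega-hydroxylation and reduction to alcohols. They are then joined to glycerol and ferulate and carried across the plasma membrane. The 10 genes described here cover these steps and were taken by locus identifier: the hydroxylases CYP86A1 and CYP86B1, the acyltransferases GPAT5 and RWP1, the elongases KCS2 and KCS20, the reductases FAR1, FAR4 and FAR5, and the transporter ABCG2. All 10 were found among the 27416 genes of the count table. The choice rested on the genes' known roles, and results of these data were already known when it was made.

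The values are ribosome footprint counts on coding sequences, from root and shoot of Arabidopsis thaliana Col seedlings 4 days old, grown in liquid medium with sucrose and taken at 3 h of the light period. Extraction used 4 buffers, A to D, with 1 library per tissue and buffer, which gave 8 libraries, 4 of root and 4 of shoot. Buffers A, B and C held 200 mM Tris with 50, 40 and 30 mM KCl and 25, 20 and 15 mM MgCl2, and buffer D held 100 mM Tris with 40 mM KCl and 20 mM MgCl2. All buffers shared the same detergents, cycloheximide, DTT and DNase I. The buffers served as repeats of a tissue. The labels do not say that the libraries came from separate plants, so the p-values rest on a spread that may be technical.

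Library totals ran from 1120218 counts in root D to 4501213 in shoot A, and root totals ended at 3410266. Levels are given as CPM (counts scaled to a common library size), with trimmed-mean (TMM) factors, under which 1 count was worth 0.251 to 0.730 CPM in root and 0.264 to 0.315 CPM in shoot. They are not corrected for coding length and are therefore not compared between genes. They combine mRNA level with translation, and in whole tissues fewer cells of a type cannot be told apart from less RNA per cell. The endodermis markers of the Casparian strip, such as ESB1 (199 ± 12.8 CPM in root and 10.5 ± 2.77 CPM in shoot, SD, n = 4) and PER64 (112 ± 9.18 and 6.14 ± 3.42 CPM), summed to 530 to 583 CPM in root libraries and 19.8 to 40.0 CPM in shoot libraries. Of these 8 markers, 7 were called higher in root, as were 17.7% of all genes tested. CASP5 was not called (adjusted p = 0.0837, and 0.0293 with library totals alone, edgeR), and no marker was at 0 over the shoot libraries together. The 6 green tissue markers, among them RBCS1A (17331 CPM in shoot) and CAB1 (11320 CPM), were all called lower in root, as were 22.6% of all genes tested. In root these markers stood at a median of 0.967% of their shoot level. In root RCA stood at 95.1 CPM and GUN5 at 89.9 CPM.

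The suberin genes did not follow a single tissue pattern. CYP86A1, CYP86B1, RWP1, FAR4 and ABCG2 were higher in root by 2.32 to 3.77 on the log2 scale, whereas FAR1 (-3.33) and KCS20 (-1.86) were lower in root. KCS2 was not called. GPAT5 and FAR5 had too few counts to pass the filter on low values and were not tested in the fit across all genes. Of the 8 members that passed, 5 were called higher and 2 lower, where 17.7% of the 15664 genes tested were called higher in root, 22.6% lower and 40.3% either way (edgeR quasi-likelihood test, Benjamini-Hochberg adjusted p under 0.05). The median log2 fold change was 2.51 over those 8 and -0.12 over all genes tested. A gene can pass the filter through the tissue in which it is high, so these counts describe the 8 and carry no test of the list. All 4 root libraries lay above all 4 shoot libraries for 5 of the 8 members tested and below them for 2, against 19.7% and 25.3% of all genes tested, and also for GPAT5, which was not tested.

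**Figure D1:**
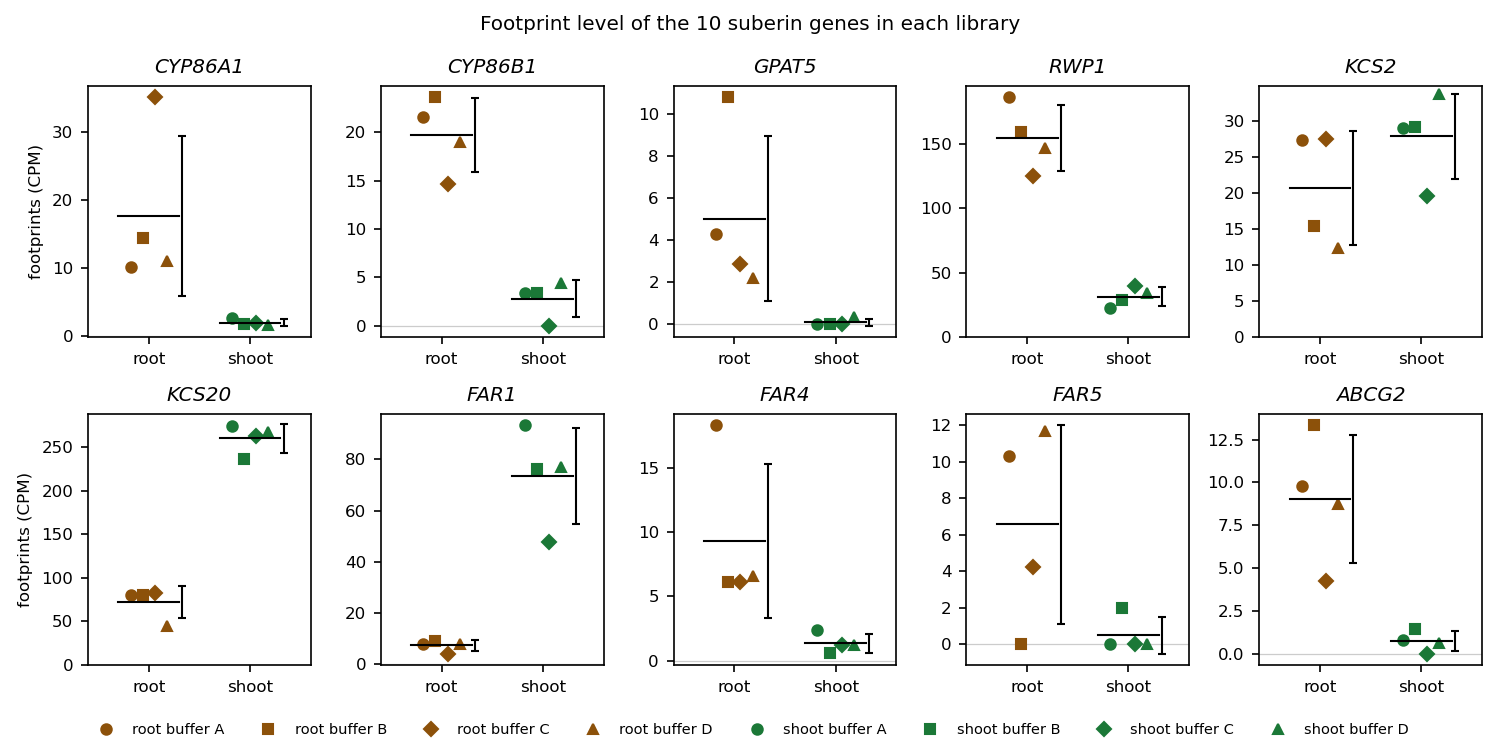
Footprint level in CPM (vertical axes, each with its own scale) of the 10 suberin genes in the 4 root libraries (brown) and the 4 shoot libraries (green). Symbols mark the buffers, horizontal lines the mean and bars the SD. Root and shoot points overlap only for KCS2 and FAR5, and only FAR1 and KCS20 have all shoot points above all root points.

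Both omega-hydroxylases, cytochromes P450 that oxidise the end of the acyl chain, carried more footprints in root. CYP86A1 (AT5G58860), which acts on long chains, stood at 10.0, 14.4, 35.0 and 11.0 CPM in root A, B, C and D, and at 2.64, 1.70, 1.87 and 1.57 CPM in shoot A, B, C and D. Root C was the highest library, resting on 74 counts, and the tissues did not overlap. The log2 fold change, root minus shoot, was 2.97 ± 0.60 (SE, adjusted p = 0.00248, edgeR), with root higher in 4 of 4 buffers. CYP86B1 (AT5G23190), which acts on very long chains, held 21.6, 23.6, 14.7 and 19.0 CPM in root A to D and 3.43, 3.39, 0 and 4.41 CPM in shoot A to D. The shoot library without a count, C, allowed a level of up to 0.934 CPM (3 counts, counting error only). Root again lay above shoot in every buffer (log2 fold change 3.04 ± 0.69, adjusted p = 0.00484, edgeR). The spread between root libraries was wider for CYP86A1, with a coefficient of variation of 66.9%, than for CYP86B1, with 19.6%.

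GPAT5 (AT3G11430), which transfers hydroxylated acyl groups to glycerol 3-phosphate, had the fewest counts of the 10. It had 17, 21, 6 and 3 counts in root A to D, which is 4.26, 10.8, 2.84 and 2.19 CPM. In shoot it had a single count, in library D. Every root library thus lay above every shoot library, at low depth. From the pooled counts, 47 in root and 1 in shoot, the ratio of root to shoot was 68.5, with an exact 95% interval of 11.7 to 2761 that covers counting error only. In a fit without the filter on low values the log2 fold change was 5.33 ± 1.84 (adjusted p = 0.0261, edgeR). With 1 library left out, GPAT5 passed the filter in 8 of 8 fits, at adjusted p from 0.0244 to 0.119 (edgeR), and was called in 2 of them. Those were the fits without root D and without shoot D, nearly the same check with buffer as a term.

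RWP1 (AT5G41040), also called ASFT, attaches ferulate to omega-hydroxy fatty acids. It had 187, 159, 125 and 147 CPM in root A to D and 22.4, 29.1, 39.5 and 34.0 CPM in shoot A to D. The lowest root library, C, stood far above the highest shoot library, also C, and both tissues were well covered, with 1519 counts in root and 423 in shoot. The log2 fold change was 2.32 ± 0.23 (adjusted p = 1.58e-05, edgeR). RWP1 kept 20.3% of its root level in shoot. Among the members higher in root, FAR4 kept 14.6%, CYP86B1 14.2%, CYP86A1 11.0% and ABCG2 7.84%. Casparian strip markers kept 1.27 to 23.9% (median 5.91%). Markers of root tip and root hair kept 2.39 to 7.37% (6 of 8 tested, all 6 higher in root, as were 17.7% of all genes tested). The latter include PRP3, at 1285 ± 212 CPM in root against 88.7 ± 29.8 CPM in shoot, and LRX1, at 259 ± 43.2 against 19.1 ± 10.5 CPM. The part of root tissue in the shoot values of the suberin genes was not tested. In the RefSeq table the span of RWP1 overlaps that of AT5G41050, which had 6 counts in root and 237 in shoot, and whether counting used strand is not given in the sources used here.

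KCS2 and KCS20, ketoacyl-CoA synthases of the fatty acid elongase, are known to act redundantly in making the very long chains of both root suberin and cuticular wax. KCS2 (AT1G04220) had 27.3, 15.4, 27.5 and 12.4 CPM in root A to D and 29.0, 29.1, 19.6 and 33.7 CPM in shoot A to D. The tissues overlapped, with root lower in 3 buffers and higher in 1. Its log2 fold change was -0.45 ± 0.37 (adjusted p = 0.374, edgeR) and, scaled by library totals alone, 0.04, so that it had no settled sign. KCS20 (AT5G43760) had 80.8, 80.6, 82.4 and 45.3 CPM in root A to D, and 274, 237, 264 and 268 CPM in shoot A to D. All shoot libraries were far above all root libraries, and root D was the lowest. KCS20 was lower in root by -1.86 ± 0.18 on the log2 scale (adjusted p = 1.16e-05, edgeR). Reads that match both synthases could have been counted at either gene, since the treatment of such reads is not given. The span of KCS2 also overlaps that of AT1G04210 in the RefSeq table, which had 367 counts in root and 741 in shoot.

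The 3 fatty acyl-CoA reductases, which make the primary alcohols of suberin, split between the tissues. FAR1 (AT5G22500) had 8.03, 9.24, 4.26 and 8.03 CPM in root A to D against 93.3, 76.1, 47.9 and 76.8 CPM in shoot A to D. Its root level was 10.0% of its shoot level, and the tissues did not overlap (log2 fold change -3.33 ± 0.26, adjusted p = 2.93e-06, edgeR). The span of FAR1 overlaps that of AT5G22505 in the RefSeq table, a gene not analysed here. FAR4 (AT3G44540) went the other way, with 18.3, 6.16, 6.15 and 6.57 CPM in root A to D and 2.37, 0.566, 1.24 and 1.26 CPM in shoot A to D. Root A stood above the other root libraries, but the others were also above all of shoot. FAR4 was higher in root by 2.71 ± 0.75 (adjusted p = 0.0143, edgeR). That call was lost when either library of buffer A or B was left out, which with buffer as a term is nearly the same check for both. The adjusted p was then 0.138 without root A, 0.0709 without shoot A, 0.0655 without root B and 0.0552 without shoot B (edgeR), with log2 fold changes of 2.53 to 2.62.

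FAR5 (AT3G44550) lies next to FAR4 among the coding genes of the RefSeq table, and the reads of the 2 genes may be shared. It had 41, 0, 9 and 16 counts in root A to D, or 10.3, 0, 4.26 and 11.7 CPM. In shoot it had 7 counts in library B and none in A, C or D. Root was higher in 3 buffers and lower in buffer B, where the root library had no count and allowed up to 1.54 CPM. Without the filter on low values the log2 fold change was 4.57 ± 1.96 (adjusted p = 0.0809, edgeR). Leaving out root B gave 7.72 (adjusted p = 0.0188, edgeR) and leaving out shoot B 7.61 (adjusted p = 0.0206, edgeR). With buffer as a term these are nearly the same check, and both set aside buffer B, where root was lower. Without shoot A, C or D FAR5 was not called, at adjusted p of 0.301 to 0.371 (edgeR).

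ABCG2 (AT2G37360) is an ABC transporter that, together with ABCG6 and ABCG20, is needed for normal suberin in roots and seed coats. Its levels were 9.78, 13.3, 4.26 and 8.76 CPM in root A to D and 0.791, 1.41, 0 and 0.630 CPM in shoot A to D. No shoot library reached the lowest root library, root C, and the shoot values together rested on 10 counts. The log2 fold change of 3.77 ± 0.91 was the largest among the 8 members tested (adjusted p = 0.00693, edgeR), and its standard error was the largest as well.

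The 10 genes together held 272 to 377 CPM in root libraries and 374 to 428 CPM in shoot libraries, and these ranges overlapped. RWP1 took 48.0 ± 5.49% of the counts on the 10 genes in root (SD, n = 4) and 7.89 ± 2.19% in shoot, while KCS20 took 22.3 ± 4.37% and 65.1 ± 3.68%. FAR1 took 2.31 ± 0.711% in root and 18.2 ± 3.88% in shoot. KCS2 held 6.35 ± 2.14% in root and 6.93 ± 1.24% in shoot. These shares follow coding length as well as footprint density, so only the comparison of the same gene between tissues can be read.

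**Figure D2:**
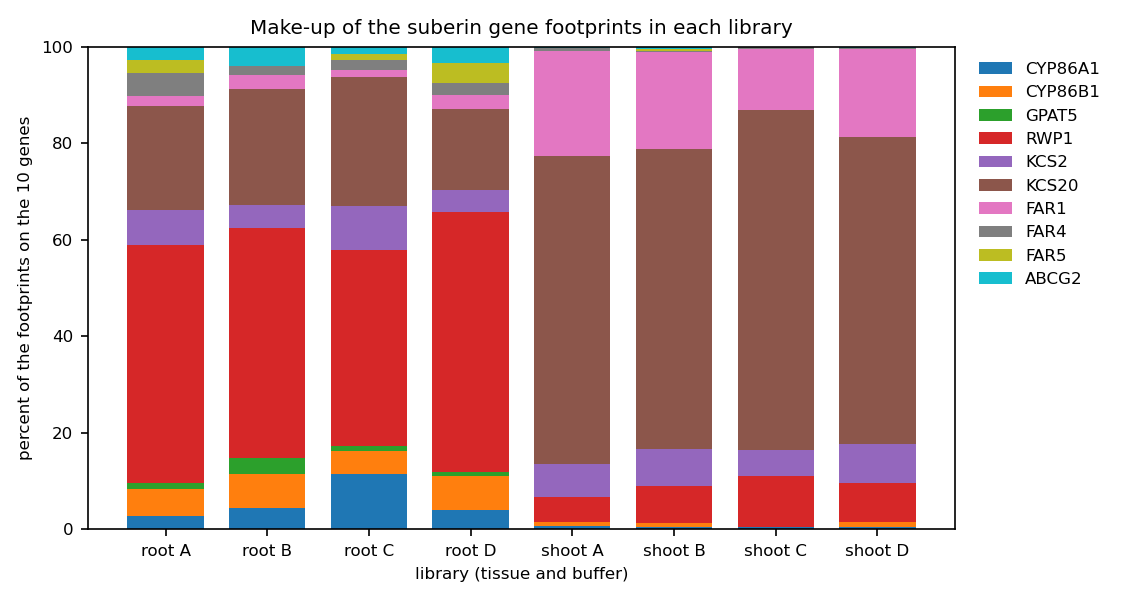
Percent of the footprint counts on the 10 suberin genes (vertical axis) that fell on each gene, for each library (horizontal axis). RWP1 takes 40.8 to 54.0% in the root libraries and 5.23 to 10.6% in the shoot libraries, and KCS20 takes 16.7 to 26.9% and 62.3 to 70.5%.

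Ratios of counts between related members need no scaling between libraries and were compared for 4 pairs, with 0.5 counts added to each gene. The log2 ratio of KCS2 to KCS20 was -1.56, -2.37, -1.58 and -1.84 in root A to D and -3.24, -3.01, -3.74 and -2.98 in shoot A to D. KCS2 thus held a larger part of the counts of the 2 synthases in each root library than in any shoot library, by 1.41 on the log2 scale (two-sided exact permutation p = 0.0286, n = 4 and 4, adjusted over the 4 pairs 0.0571). The ratio of FAR1 to the sum of FAR4 and FAR5 was lower in root by -6.14, with every root library below every shoot library (exact permutation p = 0.0286, adjusted 0.0571). FAR1 and FAR4 had already separated the tissues in opposite directions, so this ratio restates those levels and is no separate support. Likewise the ratio of KCS2 to KCS20 restates levels given above, where KCS20 alone had separated the tissues. Reads that match both synthases could also affect it. The p of 0.0286 is the smallest that 4 against 4 can give, and neither ratio passed after adjustment. The permutation did not pair libraries by buffer. Paired by buffer, an exact sign-flip test chosen after seeing the data gave p = 0.125 for both, the smallest that 4 pairs allow. For FAR4 to FAR5 the difference was -0.96 (exact permutation p = 0.571, adjusted 0.743; -2.24 to -0.26 with 1 library left out) and for CYP86A1 to CYP86B1 -0.58 (exact permutation p = 0.743, adjusted 0.743). The latter turned to 0.57 without shoot C. These last ratios rest on libraries without a count of the second gene, whose ratios depend on the 0.5 counts added.

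**Figure D3:**
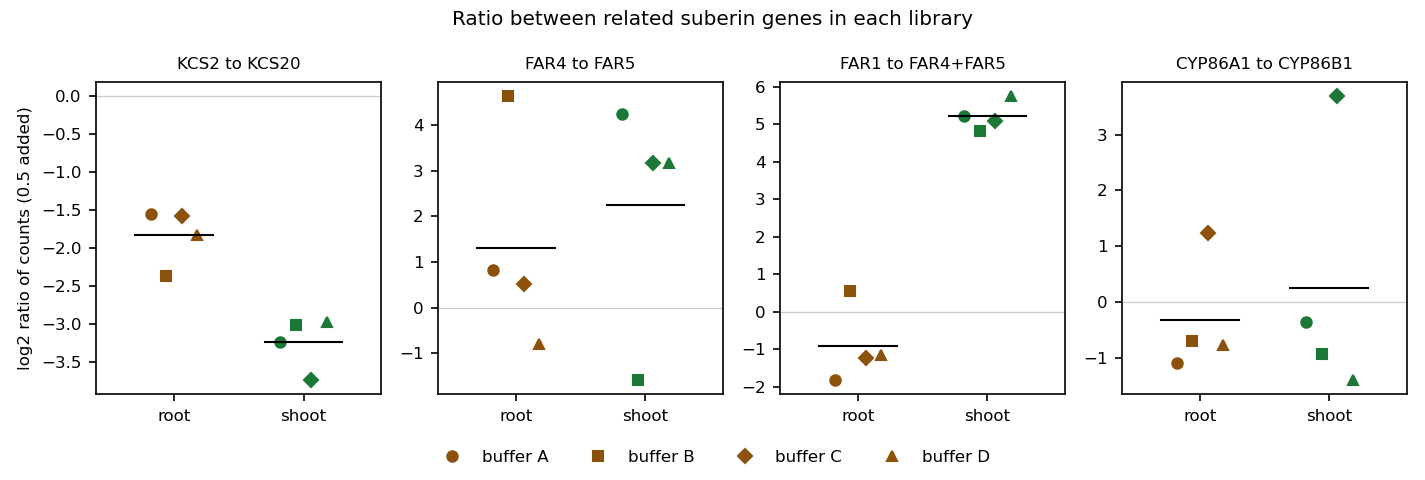
Log2 ratio of counts, 0.5 added to each (vertical axis), between related suberin genes in the root (brown) and shoot (green) libraries, with symbols for buffers and lines for means. Root and shoot do not overlap for KCS2 to KCS20 and for FAR1 to FAR4 plus FAR5, and they overlap for the other pairs.

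The tested relatives of the suberin genes in the same 6 families were called lower in root more often than higher. Of 45 relatives, 26 passed the filter on low values, and of these 2 were called higher in root, 21 lower and 3 were not called (17.7% and 22.6% of all genes tested were higher and lower), with a median log2 fold change of -4.64 (-4.54 with 5 genes without root counts at the bound set by 3 counts over the root libraries). Scaled by library totals alone the counts were 4 higher and 20 lower. The 5 genes without root counts passed the filter through shoot alone, and 19 relatives were not tested. These counts therefore describe the 26 and carry no test of the families or of members against relatives. Among reductase relatives 1 of 5 was tested, and the other 4 had 0 counts in every library. The 2 relatives higher in root were FAR3 (CER4), which makes wax alcohols, and ABCG6, a partner of ABCG2 in suberin deposition. The other partner, ABCG20, was not tested, with 12 counts in root and 10 in shoot, and its tissues overlapped. FAR3 had 62.0, 58.5, 81.0 and 42.4 CPM in root A to D and 0.283 to 2.80 CPM in shoot (4.90 ± 0.45, adjusted p = 8.22e-06, edgeR). ABCG6 had 7.58 to 18.3 CPM in root and 1.32 to 3.11 CPM in shoot (2.62 ± 0.69, adjusted p = 0.0109, edgeR).

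The relatives lower in root included known enzymes of cutin, the polyester of the shoot surface. Of 5 CYP86 relatives 3 were tested and 3 were lower. Beside this and the family counts below, 22.6% of all genes tested were lower in root and 17.7% higher. CYP86A2 (23.7 ± 7.05 CPM in root against 512 ± 35.1 CPM in shoot) and CYP86A8, hydroxylases of cutin, were lower in root at -4.46 ± 0.19 and -5.57 ± 0.44 on the log2 scale, as was CYP86A4 at -2.75 ± 0.81. Of 7 GPAT relatives 3 were tested and 3 were lower. GPAT4 and GPAT8, acyltransferases of cutin, were lower at -2.37 ± 0.20 and -3.25 ± 0.33, and GPAT3 at -0.77 ± 0.27, a call lost with library totals alone (adjusted p = 0.451, edgeR). GPAT6 was not tested, with 16 counts in root and 23 in shoot, and its tissues overlapped. DCF, which feruloylates cutin monomers, had no root count, 51.5 ± 5.30 CPM in shoot and thus a shoot level at least 161-fold higher. FACT, which makes caffeate esters of root waxes, did not pass the filter, and its 11.0 ± 8.76 CPM in root overlapped its 1.65 ± 1.22 CPM in shoot. Of 7 ABCG relatives 4 were tested, 1 was higher and 2 were lower. ABCG19 and ABCG18 had no root count either, which puts ABCG19 at least 107-fold and ABCG18 at least 40.0-fold higher in shoot, and ABCG1 was not called (-0.24 ± 0.98).

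The ketoacyl-CoA synthase family was the largest, with 19 relatives of which 14 were tested, 12 were lower in root and 0 higher. Over all genes tested, 22.6% were lower and 17.7% higher. With library totals alone 2 were higher and 12 lower, the higher being KCS4 and KCS11. KCS6 and KCS10, of the shoot epidermis, were lower in root at -5.62 ± 0.23 and -5.28 ± 0.22, and KCS1 at -1.03 ± 0.14, where 100.2 ± 14.9 CPM in root stood against 205 ± 7.88 CPM in shoot. KCS4 had a log2 fold change of 0.29 ± 0.17 (adjusted p = 0.209, edgeR; 0.78 and adjusted p = 0.00268 with library totals alone). Markers of the shoot epidermis, a list that shares KCS6 and KCS10 with that family and includes LTP1 (1201 ± 93.9 CPM in shoot), summed to 2684 to 3024 CPM in shoot and 27.8 to 61.4 CPM in root. All 6 of them were lower in root, and none was at 0 over the root libraries together. The part of the shoot epidermis in the shoot levels of KCS20 and FAR1 was not tested.

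**Figure D4:**
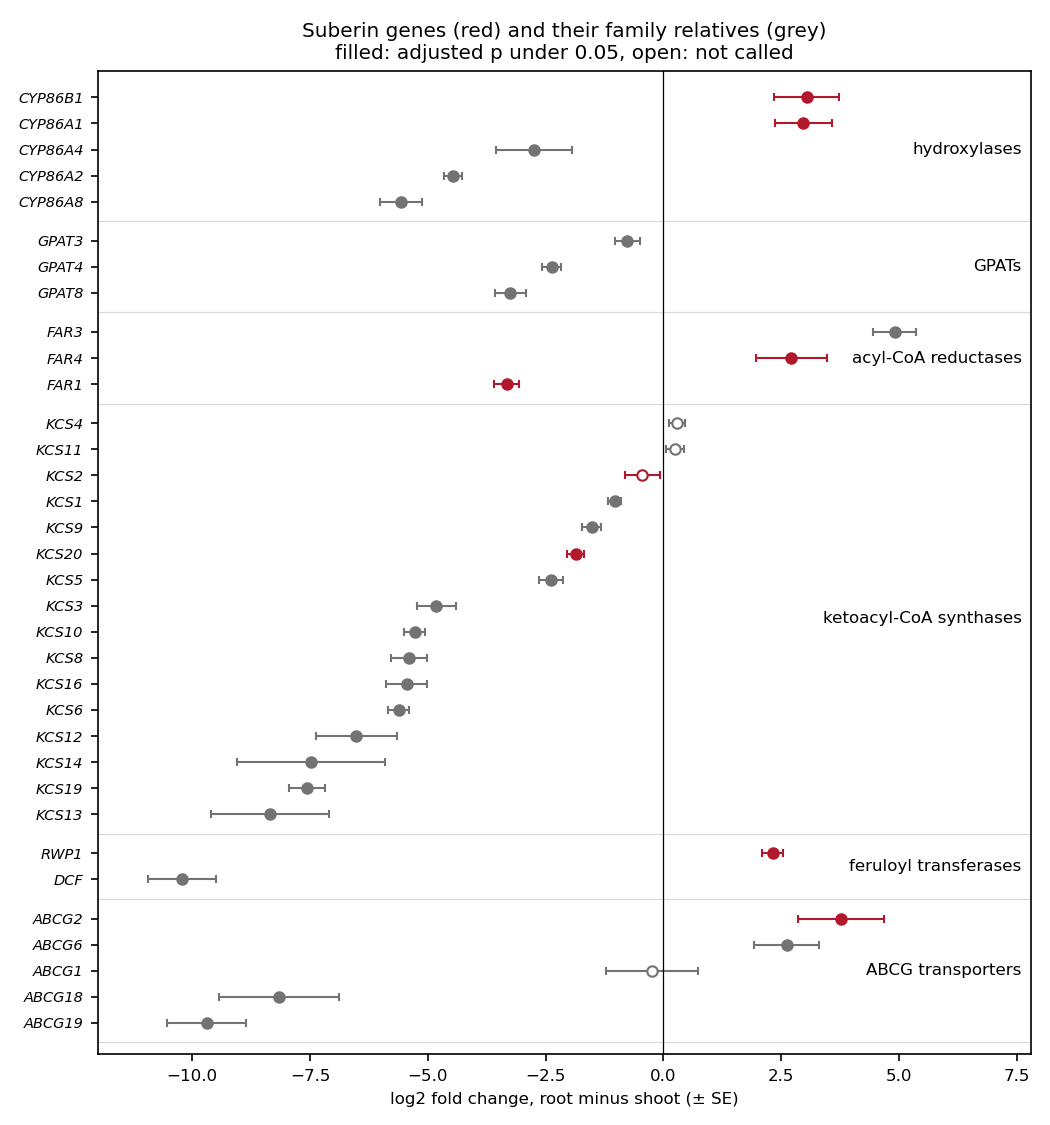
Log2 fold change, root minus shoot, with its SE (horizontal axis) for the 8 tested suberin genes (red) and their 26 tested relatives (grey), by family; filled points have an adjusted p under 0.05. KCS13, KCS14, DCF, ABCG18 and ABCG19 had no root count, so their points depend on the fit's prior count. The red points lie at 2.32 or above except FAR1, KCS20 and KCS2.

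Enzymes that serve the pathway without being specific to it went both ways. Of 5 such genes, 1 was higher in root, 2 were lower and 2 were not called, where 40.3% of all genes tested were called. ATR1, a P450 reductase that feeds electrons to the hydroxylases, was higher by 0.52 ± 0.14 (adjusted p = 0.0133, edgeR), and ATR2 had a value of -0.17 ± 0.14. Of the elongase core, the dehydratase PAS2 and the enoyl reductase CER10 were lower at -1.45 ± 0.17 and -1.38 ± 0.15, and the ketoacyl reductase KCR1 had a value of 0.25 ± 0.11. With library totals alone KCR1 was also higher, at 0.74.

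The MYB transcription factors known to activate suberin genes were sparsely covered. Of 7, only MYB92 passed the filter, with 6.52, 8.21, 13.7 and 17.5 CPM in root A to D and 0.527, 0.849, 4.67 and 2.83 CPM in shoot A to D (2.63 ± 0.71, adjusted p = 0.0125, edgeR). The tissues did not overlap. MYB93 had 22 counts in root and 5 in shoot, and MYB107 had 1 and 9. MYB39 had 16 counts in root, 13 of them in library A, and 0 in shoot. The seed coat makes suberin, but no marker of the seed coat was listed. Seed storage markers were followed for seed remains in general. Of 7, only CRA1 (45.0 ± 28.6 CPM in shoot) and CRU3 (22.8 ± 14.7 CPM) passed the filter. Both had 0 counts in root, passed the filter through shoot alone and were called lower in root, as were 22.6% of all genes tested. SESA4 had 7 counts in each tissue. The summed seed markers ranged from 20.8 CPM in shoot A to 127 CPM in shoot D. FAR1 stood at 93.3 CPM in shoot A and 76.8 CPM in shoot D, and the part of seed remains in the shoot values was not tested.

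Buffer composition, which the study varied, moved no member past the threshold. A difference between the 4 buffers shared by both tissues was called for 0 of the 8 members and 0.0575% of all genes tested. With tissue and buffer as the only terms, this test and those of single buffers below cannot see changes that run opposite ways in root and shoot. For buffer A against C, the highest against the lowest salt, 0 members and 0% of genes were called, and for buffer D against B, which differ in Tris, 0 members and 0.0447% of genes (edgeR, adjusted p under 0.05). At an unadjusted p under 0.05, edgeR and DESeq2 each picked 0 members for any buffer, 1 for A against C and 0 for D against B. DESeq2 called none after adjustment, but for D against B it gave CYP86A1, CYP86B1, FAR4 and ABCG2 no adjusted p. Standard errors of the members' differences were 0.24 to 1.25 on the log2 scale for A minus C and 0.25 to 1.18 for D minus B, so only large differences could have been seen.

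The member picked for A against C was FAR1. It stood at 8.03 CPM in root A and 4.26 in root C, and at 93.3 CPM in shoot A and 47.9 in shoot C. The log2 difference, A minus C, was 0.92 ± 0.35 (unadjusted p = 0.0247, adjusted p = 1.00, edgeR). Over all genes, 254 had an unadjusted p under 0.05, against 783 that chance alone would give.

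RWP1 was the member whose trend with MgCl2 differed most clearly between the tissues before adjustment. In 200 mM Tris its root level was 125, 159 and 187 CPM at 15, 20 and 25 mM, and its shoot level 39.5, 29.1 and 22.4 CPM. The order was thus opposite in the 2 tissues. The difference of the slopes, root minus shoot, was 1.39 ± 0.45 on the log2 scale per 10 mM MgCl2 (unadjusted p = 0.0100, adjusted p = 1.00, edgeR; DESeq2 1.36, unadjusted p = 0.0142). The same test called 0 members and 0% of genes. An unadjusted p under 0.05 was found for 618 genes, against 783 that chance alone would give. KCl rose with MgCl2 at a fixed ratio, so the salts cannot be told apart.

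**Figure D5:**
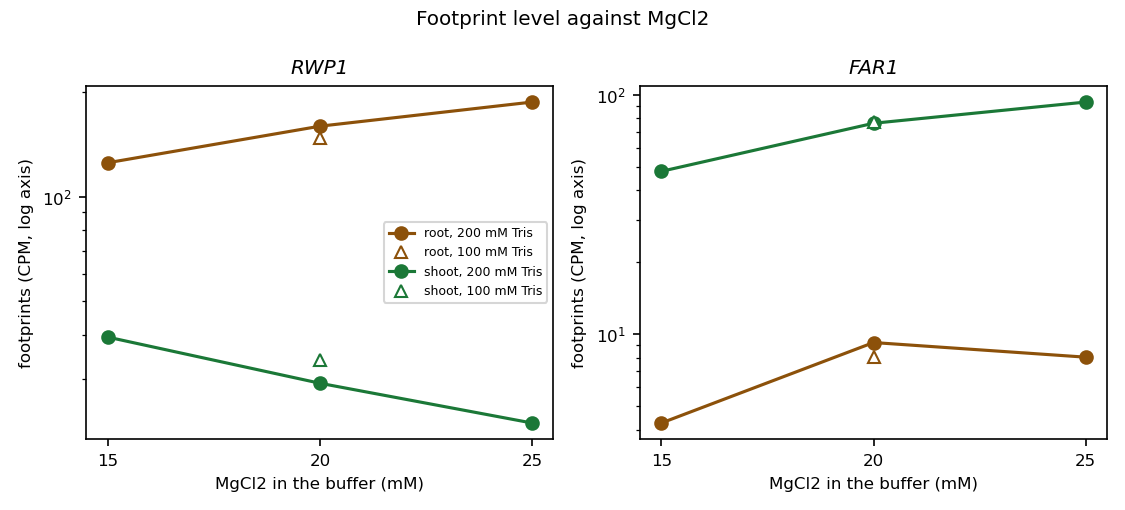
Footprint level in CPM (log axis) of RWP1 and FAR1 against the MgCl2 concentration of the buffer in mM, in root (brown) and shoot (green); lines join the 200 mM Tris buffers and open triangles are the 100 mM Tris buffer. The RWP1 points run from 125 to 187 CPM in root and from 39.5 to 22.4 CPM in shoot, and FAR1 is lowest at 15 mM in both tissues; neither passed after adjustment.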

How the data were processed

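The deposited file holds raw counts of ribosome footprints per coding sequence, with no normalization by the authors and 1 column per library. Bowtie2, STAR 2.5.1b and TAIR10 are listed in the submitters' processing notes. No source used here gives the counting program, a length filter or the handling of multiply mapped reads. Each library was assigned by its title.

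Across 27416 genes, edgeR 4.0.16 (R 4.3.3) was run with TMM factors. Its filterByExpr (minimum count 10, minimum total 15, by tissue) kept 15664 genes. The quasi-likelihood test had tissue and buffer as terms and 3 residual degrees of freedom. Root and shoot libraries of a buffer were paired by design, although their deviations from the tissue means were nearly uncorrelated (-0.00416 to 0.0200). A second model held tissue, MgCl2, Tris and tissue by MgCl2. Calls used Benjamini-Hochberg adjusted p under 0.05 over all genes tested. The SE is the fold change divided by the square root of F. Ratios of related genes were compared by exact permutation of libraries, not paired by buffer. The fits were tested on simulated data. DESeq2 1.42.0, other scalings, no filter, no buffer term and each library left out were alternatives.

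Members and 13 other gene lists were chosen with earlier results of these data known. All 10 members are named. Of each other list the 2 genes highest in root and in shoot are named, as is any family or MYB gene called higher in root. Outside this rule, KCS11, KCS13, KCS14, MYB39, CASP5, ABCG20, GPAT6, ATR1 and PAS2 were named after their values were seen. Names and overlaps of gene spans come from RefSeq's gene table (assembly TAIR10.1), which matched 26719 genes and all 10 members. Floors of 3 counts and 95% intervals cover counting error only.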

Additional observations from a re-analysis of the deposited data

Results flagged for a closer look

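In 4 of the 20 sets of 4 libraries examined, 1 library lay far from the other 3, as judged by its gap to the nearest library over the whole range. FAR4 had 18.3 CPM in root A, where the other root libraries had 6.15 to 6.57 CPM. KCS20 had 45.3 CPM in root D, the shallowest library, where the others had 80.6 to 82.4 CPM. GPAT5 had 0.315 CPM in shoot D, which is a single count, and 0 in the other shoot libraries. FAR5 had 1.98 CPM in shoot B, from 7 counts, and 0 in the other shoot libraries. For GPAT5 and FAR5 in shoot, 3 libraries at 0 make this measure reach its maximum whatever the remaining count is. Chance flags about 1 in 20 sets of continuous values, a rate that does not apply to such sets.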

How the results depend on the processing

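The counts of members called, 5 higher and 2 lower in root and 0 in each buffer test, stayed within 1.5 times under every alternative run. CYP86A1, CYP86B1, RWP1, FAR1, KCS20 and ABCG2 kept call and direction in 14 of 14 alternatives. These include each library left out, where the root and shoot libraries of a buffer give nearly the same check with buffer as a term. ABCG2 ranged from 3.45 to 4.25 on the log2 scale, with adjusted p up to 0.0452, and CYP86A1 from 2.53 to 3.46, with adjusted p up to 0.0445. FAR4 lost its call in 4 of 14, all with a library of buffer A or B left out, and KCS2 ranged from -0.79 to 0.04 and was never called. Without the buffer term (no replicate block) FAR4 stood at 2.76, and no member's call changed. Library totals alone moved the median of all genes from -0.12 to 0.37 and the genes called higher in root from 2780 to 4734, with 3537 and 2692 lower. Any-buffer calls over all genes went from 9 to 14 with library totals alone, 1 without organelle loci, 23 without the filter, 24 with DESeq2, 2 without root A or shoot C, and 0 without root B, root C, root D or shoot B. Genes higher in buffer D than B went from 7 to 2 with RLE factors, 1 without organelle loci, 15 without the filter, 16 with DESeq2, 2 without root A or shoot C, 0 without root B, C, D or shoot B, and 16 without shoot D. Genes lower in buffer D than B went from 0 to 1 without shoot D. Tissue by MgCl2 gave 7 genes higher without shoot C, and 1 higher and 1 lower without the filter. The cause was not tested. The alternatives beyond library totals and DESeq2 for the buffer tests, except no filter for any buffer, were chosen after seeing the data. No ratio of related genes passed under a pseudocount of 1 or without any 1 library, or with libraries paired by buffer. GPAT5 rested on 47 counts in root and 1 in shoot, and FAR5 on 66 and 7.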
